A study of Mus musculus and Homo sapiens with 59 samples.

Results

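The genes described here are 10 transcripts that p53 or cell damage commonly induces: Cdkn1a, Mdm2, Ccng1, Trp53inp1, Btg2, Plk2, Plk3, Gadd45a, Gadd45b and Gadd45g. They were taken by symbol from the deposited expression tables, where all 10 were found among 19407 mouse genes and, under their human symbols, all 10 among 22192 human genes. The levels come from polyadenylated RNA of 59 libraries of cultured cells whose plasma membrane had been opened by a pore-forming protein or by the detergent digitonin, or that served as controls. They are given as TPM, a level scaled for transcript length and for the library total.

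NIH3T3 are mouse fibroblasts (35 libraries), LLC are Lewis lung carcinoma cells of the mouse (16 libraries), and HT29 and BxPC3 are human colorectal and pancreatic carcinoma lines (4 libraries each). All cells were kept in DMEM, in its calcium-free form for the groups marked noCa. Parental cells are labelled as carrying no construct. MLKL cells carried hMLKL1–181-2Fv, an amino-terminal fragment of human MLKL joined to a domain that the compound AP20187 dimerizes (100 nM, 1 h). GSDMD cells carried mGSDMD1-276-HBD, an amino-terminal fragment of mouse gasdermin D joined to a hormone-binding domain that 4OHT engages (50 nM, 2.5 h). AP20187 was also given to parental NIH3T3 cells and 4OHT to parental LLC cells. Digitonin was used at 55 µg/mL for 3 h in the mouse lines, against libraries labelled noDig, and at 40 µg/mL for 2 h in the human lines. NIH3T3 MLKL cells were further split by siRNA (siCTR or siPKC) and by knockout (noko or p65ko), where p65 is the NF-κB subunit encoded by Rela. The labels do not say whether a construct or knockout line is a clone. There were 30 groups, 29 of them with 2 libraries and 1, siPKC with AP20187, with a single one. Whether libraries of a group come from separate cultures is not in the labels, so the p-values reflect only how these libraries scatter, which may be technical.

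p53 is a transcription factor that DNA damage and other stresses stabilize. Cdkn1a encodes p21, an inhibitor of cyclin-dependent kinases, and Mdm2 encodes the ubiquitin ligase that degrades p53 and so closes a feedback loop. Ccng1 encodes cyclin G1, and Trp53inp1 a nuclear protein that promotes p53 activity and autophagy. Btg2 is an antiproliferative gene of the BTG/TOB family that recruits the mRNA deadenylation machinery. Plk2 and Plk3 are stress-responsive Polo-like kinases, and the Gadd45 proteins bind and activate the kinase MAP3K4 upstream of p38 and JNK. Several of these genes, Btg2, Plk2, Plk3 and Gadd45b among them, are also known as immediate early genes that growth factors and calcium signals induce without p53.

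Label checks come before the results because they touch several of them. Gsdmd stood at 1135 and 1230 TPM in untreated NIH3T3 GSDMD cells and at 5.44 and 6.14 TPM in parental NIH3T3 cells. In LLC cells it was 376 and 377 TPM with the GSDMD construct and 22.6 TPM in both parental untreated libraries. The 4 LLC libraries of the digitonin experiment are labelled as carrying no construct, yet held 326 to 337 TPM of Gsdmd, so they go against that label and are called the libraries labelled LLC noDig and LLC digitonin. Rela was 13.6 and 14.1 TPM in p65ko and 49.2 and 49.7 TPM in noko cells, untreated. Of the protein kinase C genes, Prkca was 7.46 and 8.05 TPM after siPKC and 31.0 and 32.7 TPM after siCTR, untreated. The human MLKL construct was not checked, since the mouse table is by mouse gene. The untreated siCTR replicate 2 stands apart by 13244 TPM of the ribosomal RNA gene Rn45s, where the next highest mouse library held 873 TPM. The small RNA gene MIR6723 took 79868 to 183400 TPM of the human libraries. In checks of cell identity, all 6 fibroblast markers were at 1 TPM or more in every NIH3T3 library. In LLC cells 2 of 6 fibroblast and 2 of 5 epithelial markers were at 1 TPM or more in every library. The fibroblast genes Col1a1, Col1a2 and Thy1 and the epithelial genes Epcam and Cdh1 were under 1 TPM there throughout. Of 5 leukocyte markers, each mouse line had 1 at 1 TPM or more in every library. The leukocyte genes Ptprc and Adgre1 were under 1 TPM in every library of both mouse lines. All 5 epithelial markers were at 1 TPM or more in every HT29 and BxPC3 library. So were 2 of 4 leukocyte markers in HT29 and 1 of 4 in BxPC3 cells.

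The promoters of 9 of the 10 mouse genes are in the RefSeq-based table used here (GRCm38.p6, the mm10 build), Cdkn1a with 2 start sites. The 250 bases before each start were searched on both strands for the CRE TGACGTCA, the AP-1 site TGAGTCA, the EGR sites GCGTGGGCG and GCGGGGGCG, the CCAAT box, the TATA box written as TATAAA, the p53 half-site, the NF-κB site and the CArG box. No match in these promoters overlaps a match of another motif. Shown are the promoters of Btg2 and Plk2, which hold the CRE, of Cdkn1a at its upstream start, which holds p53 half-sites, of Plk3, which passed higher in every line after permeabilization, and of Ccng1, which holds a p53 half-site and mostly did not rise. Capitals mark the CRE or the p53 half-sites, and the Plk3 sequence holds none of the searched motifs, so it is in lower case throughout.
Btg2: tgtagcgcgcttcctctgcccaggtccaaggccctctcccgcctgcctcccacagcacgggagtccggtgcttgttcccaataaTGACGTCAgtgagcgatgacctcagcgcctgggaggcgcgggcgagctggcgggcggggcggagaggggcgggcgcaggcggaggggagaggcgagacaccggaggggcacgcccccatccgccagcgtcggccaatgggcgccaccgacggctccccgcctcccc
Plk2: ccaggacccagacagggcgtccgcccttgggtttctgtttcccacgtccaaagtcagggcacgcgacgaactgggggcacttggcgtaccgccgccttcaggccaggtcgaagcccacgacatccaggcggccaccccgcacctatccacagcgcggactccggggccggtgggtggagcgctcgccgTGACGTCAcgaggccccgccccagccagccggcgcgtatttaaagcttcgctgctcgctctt
Cdkn1a upstream start: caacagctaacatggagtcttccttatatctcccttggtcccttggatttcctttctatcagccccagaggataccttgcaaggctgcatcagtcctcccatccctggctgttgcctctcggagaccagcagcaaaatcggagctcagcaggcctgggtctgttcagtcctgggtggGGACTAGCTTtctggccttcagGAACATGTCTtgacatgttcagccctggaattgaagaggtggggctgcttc
Plk3: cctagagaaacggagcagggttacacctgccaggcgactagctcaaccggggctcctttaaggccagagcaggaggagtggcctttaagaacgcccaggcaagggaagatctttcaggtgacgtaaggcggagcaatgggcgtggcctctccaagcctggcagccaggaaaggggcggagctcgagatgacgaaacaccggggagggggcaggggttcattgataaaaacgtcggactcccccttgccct
Ccng1: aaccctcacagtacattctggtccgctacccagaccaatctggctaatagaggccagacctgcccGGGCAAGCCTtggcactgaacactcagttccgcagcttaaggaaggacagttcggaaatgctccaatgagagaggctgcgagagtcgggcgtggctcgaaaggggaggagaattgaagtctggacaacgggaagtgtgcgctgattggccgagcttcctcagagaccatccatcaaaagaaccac

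The Btg2 sequence lies at chr1:134079156-134079405 on the minus strand, with its CRE from 166 to 159 bases before the start. Plk2 is at chr13:110394794-110395043 on the plus strand, with its CRE 62 to 55 bases before the start. Cdkn1a at the upstream start is at chr17:29090729-29090978 on the plus strand, with half-sites 73 to 64 and 51 to 42 bases before it. Plk3 is at chr4:117133964-117134213 on the minus strand. Ccng1 is at chr11:40755287-40755536 on the minus strand, with the half-site 185 to 176 bases before the start. The CRE was found in 2 of the 10 member promoters, against 1.55% of the 32851 promoters in the table. A p53 half-site was found in 4, those of Cdkn1a, Mdm2, Ccng1 and Gadd45a, against 7.13% of all promoters. The AP-1, EGR, NF-κB and CArG words were found in none of the 10, against 4.46%, 3.06%, 3.9% and 1.47% of all. CCAAT was found in 6 and TATAAA in 2, those of Gadd45b and Gadd45g, against 33.8% and 12.4% of all. A match is a description of letters, and the p53-responsive promoter of Mdm2 is known to lie inside the gene, outside this window.

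Changes are differences of log2(TPM + 1), treated minus untreated, a scale that understates the change of low genes. They were tested with limma, and a gene passed where its p, adjusted after Benjamini and Hochberg over all genes tested in that comparison, was under 0.05. A change in TPM is a change of share, and more responding cells cannot be told apart from more RNA per cell. With so few libraries, treated ones can all lie above or below untreated ones in unchanged genes too. How many genes at large do so was not counted, which holds for each such remark below. Permeabilization in complete medium was tested in 12 treated against untreated pairs, counting each line, construct, siRNA and knockout. The median change of all tested genes lay between -0.37 and -0.14 in 8 of them (siCTR, siPKC, noko, p65ko, both GSDMD lines, HT29 and BxPC3), and a scaling that centres each library on its median brought it to between -0.02 and 0.05, except in the LLC GSDMD pair, where it went from -0.25 to -0.10. Of the 12 pairs, 5 are of NIH3T3 MLKL cells given AP20187. Over all 12, Cdkn1a, Btg2 and Plk3 passed higher in 12, Mdm2 in 11, and Plk2 and Gadd45a in 10. The size of the Plk2 change varied, from 0.13 to 1.41 over the 5 NIH3T3 MLKL pairs. Plk2 went from 217 to 252 TPM in mean with siCTR, and from 289 in mean to 316 TPM in the single treated library with siPKC. The Btg2 call in LLC MLKL cells was lost whichever library of that pair was left out. Gadd45b passed higher in 4 and lower in 6, and Trp53inp1 higher in 3 and lower in 6 of 10 tested, of which the NIH3T3 GSDMD pair turned sign for both genes with median centring. Gadd45g passed higher in 6 and lower in 2. Ccng1 passed higher in 1 and lower in 6. With median centring 3 of the 6 Ccng1 calls were lost, those in noko cells (-0.05, adjusted p = 0.24), in p65ko cells (-0.20, then -0.01 with adjusted p = 0.92) and in BxPC3 cells, where the sign turned. A lower Ccng1 call was gained with it in the NIH3T3 MLKL pair in complete medium without siRNA or knockout. Without the LLC digitonin pair, whose labels are in doubt, Cdkn1a, Btg2 and Plk3 passed higher in 11 of 11, Mdm2 in 10, Plk2 and Gadd45a in 9 and Gadd45b in 3. The share of all genes called in each pair is given beside the counts below. How many genes at large passed higher in as many pairs was not counted.

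**Figure D1:**
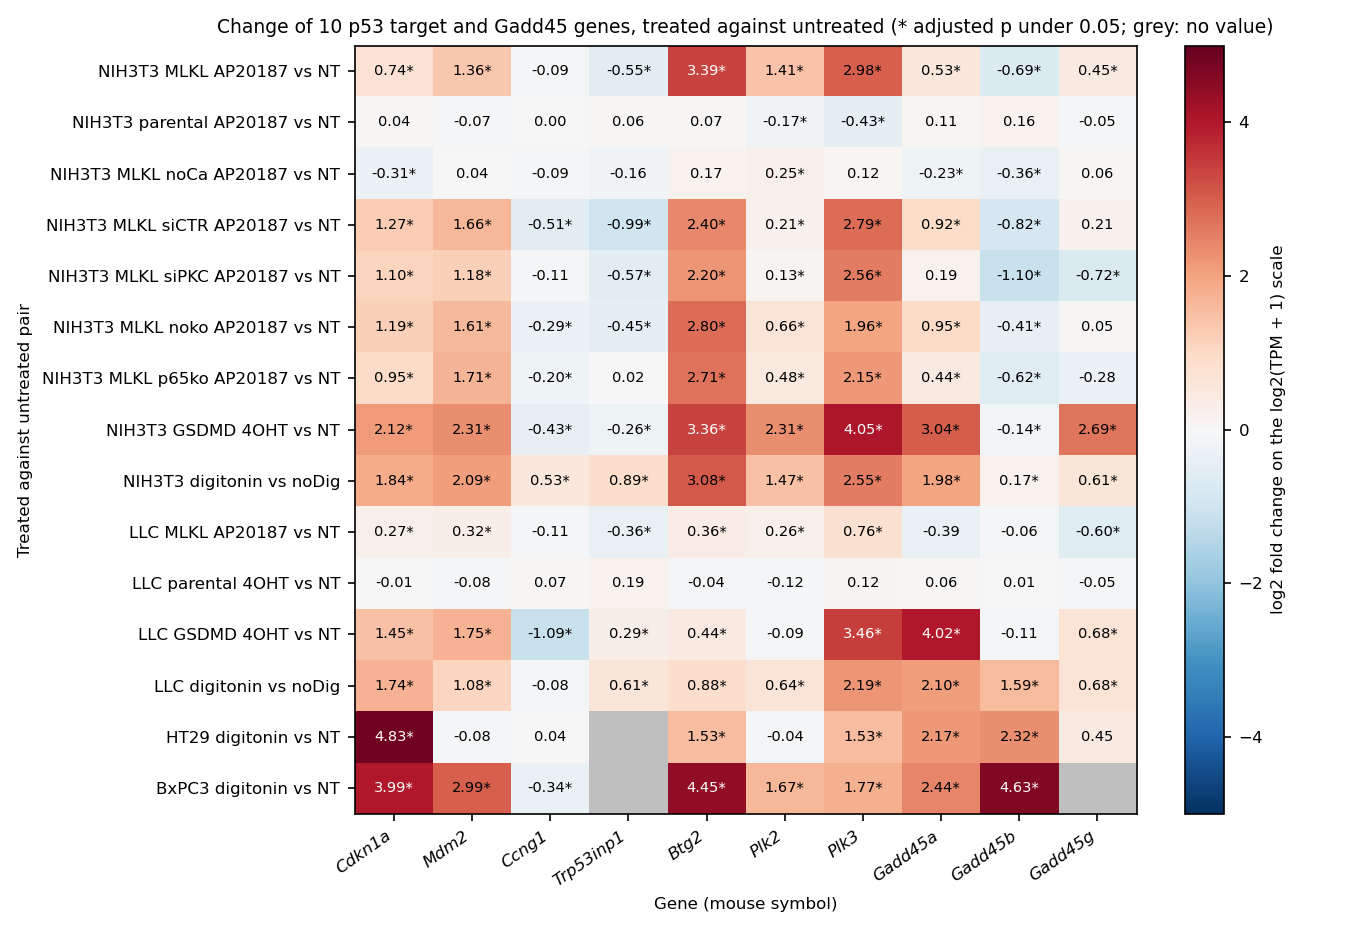
Heat map of the log2 fold change on the log2(TPM + 1) scale (colour and printed value) for the 10 genes (columns, mouse symbols) in 15 treated against untreated pairs (rows); an asterisk marks an adjusted p under 0.05 and grey marks no value. The Cdkn1a, Btg2 and Plk3 columns are positive in all 12 permeabilization pairs, while the parental pairs and the calcium-free pair stay between -0.43 and 0.25.

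In NIH3T3 MLKL cells, AP20187 for 1 h raised Btg2, Plk3, Plk2, Mdm2 and Cdkn1a and lowered Gadd45b. Of the 10 members 7 passed higher and 2 lower, where 15.8% of 11644 genes passed higher and 16.5% lower, and the members' median change was 0.63 beside -0.02 for all genes. Cdkn1a stood at 146 and 147 TPM untreated and at 239 and 252 TPM with AP20187 (log2 fold change 0.74, SE 0.04, adjusted p = 1.2e-11). Mdm2 stood at 93.1 and 95.6 TPM untreated and at 249 and 239 TPM treated (1.36, SE 0.04, adjusted p = 5.5e-18). For both genes the treated libraries lay above the untreated ones. Btg2 went from 10.9 and 10.4 TPM to 124 and 119 TPM (3.39, SE 0.07, adjusted p = 8.2e-20), and was the member with the largest change in this pair. Plk2 went from 81.7 and 82.2 TPM to 223 and 216 TPM (1.41, SE 0.03). Plk3 went from 10.8 and 9.63 TPM to 85.3 and 89.8 TPM (2.98, SE 0.06, adjusted p = 1.1e-20). Neither kinase had overlapping groups.

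The Gadd45 genes split in the same cells. Gadd45a rose from 22.0 and 21.0 TPM to 32.5 and 30.2 TPM (0.53, SE 0.07). Gadd45b fell from 135 and 128 TPM to 78.5 and 83.2 TPM (-0.69, SE 0.05, adjusted p = 6.2e-10). Gadd45g held 19.3 and 17.0 TPM untreated and 23.5 and 26.7 TPM treated (0.45, SE 0.12, adjusted p = 0.0078). That Gadd45g call was lost without untreated replicate 2 (0.36, adjusted p = 0.091) or treated replicate 2 (0.36, adjusted p = 0.082). Trp53inp1 fell from 17.9 and 18.9 TPM to 12.3 TPM in both libraries (-0.55, SE 0.07), and Ccng1 held 306 and 311 TPM untreated and 292 and 286 TPM treated (-0.09, adjusted p = 0.090). Ccng1 did pass lower here with quantile normalization, with median centring and with a replicate block.

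AP20187 on parental NIH3T3 cells, which lack the construct, raised none of the 10 past the threshold with limma, and 1, Gadd45b at 0.16, had an unadjusted p under 0.05 (0.0053). Only 0.0174% of 11504 genes passed higher and 0.287% lower in that pair, Plk3 and Plk2 among the latter. Plk3 held 19.5 and 20.5 TPM untreated and 14.2 and 15.0 TPM treated (-0.43, SE 0.06, adjusted p = 0.00041). Plk2 held 63.4 and 61.7 TPM untreated and 54.0 and 57.2 TPM treated (-0.17, SE 0.03, adjusted p = 0.0090). The Plk2 call was lost without untreated replicate 1 (adjusted p = 0.19), untreated replicate 2 (adjusted p = 0.053) or treated replicate 1 (adjusted p = 0.27), and neither gene passed in a fit on the 4 libraries alone. For Btg2 the change was 0.07, with a 95% interval from -0.07 to 0.22. The response of MLKL cells minus that of parental cells passed for 9 of 10 members, against 20.5% of 11931 genes, and was 3.41 for Plk3, 3.32 for Btg2, 1.58 for Plk2, 1.43 for Mdm2, 0.70 for Cdkn1a and -0.85 for Gadd45b. That of Gadd45g (0.49, adjusted p = 0.0499) was lost without replicate 2 of the untreated parental (adjusted p = 0.26), untreated MLKL (0.17) or treated MLKL libraries (0.16) or treated parental replicate 1 (0.19).

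In calcium-free medium AP20187 moved Btg2, Plk3 and Mdm2 by less than the threshold could call, and Cdkn1a fell. Here 1 member passed higher and 3 lower, where 2.27% of 11574 genes passed higher and 3.42% lower. Btg2 held 11.3 and 10.7 TPM untreated and 12.1 and 12.9 TPM with AP20187 (0.17, 95% interval 0.02 to 0.32, adjusted p = 0.17). Mdm2 held 105 TPM in both untreated libraries and 109 and 106 TPM treated (0.04, 95% interval -0.04 to 0.11). Plk3 held 27.5 and 28.5 TPM untreated and 30.3 and 30.7 TPM treated (0.12, adjusted p = 0.25). The treated libraries of these 3 genes lay just above the untreated ones. Cdkn1a fell from 109 and 103 TPM to 83.4 and 87.2 TPM (-0.31, SE 0.04, adjusted p = 0.00011). Plk2, the member that passed higher, went from 51.99 and 52.98 TPM to 63.6 and 61.3 TPM (0.25, SE 0.03). Gadd45b fell from 105 and 110 TPM to 82.0 and 84.9 TPM (-0.36, SE 0.05), in the direction seen in complete medium. Gadd45a held 22.8 and 20.2 TPM untreated and 19.2 and 17.2 TPM treated (-0.23, adjusted p = 0.0455). That call was lost without untreated replicate 1 (-0.15, adjusted p = 0.42) or treated replicate 2 (-0.15, adjusted p = 0.42). A fit on the 4 calcium-free libraries alone kept 1 of the 4 calls, that of Gadd45b.

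The response without calcium minus that in complete medium passed for 8 of 10 members, against 21.9% of 11865 genes. It was -3.22 for Btg2 (SE 0.10), -2.86 for Plk3 (SE 0.08), -1.33 for Mdm2, -1.16 for Plk2, -1.05 for Cdkn1a and -0.75 for Gadd45a, and 0.33 for Gadd45b and 0.39 for Trp53inp1. Medium alone also moved members: between untreated MLKL cells 7 of 10 passed, against 36.3% of 11587 genes. Plk3 was higher without calcium (1.37, SE 0.06), as was Gadd45g (0.80, SE 0.12). Trp53inp1 (-0.99), Plk2 (-0.63), Cdkn1a (-0.47) and Gadd45b (-0.29) were lower. The Plk3 libraries without calcium thus started at 27.5 and 28.5 TPM against 10.8 and 9.63 TPM, and when treated stayed below the 85.3 and 89.8 TPM of complete medium.

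**Figure D2:**
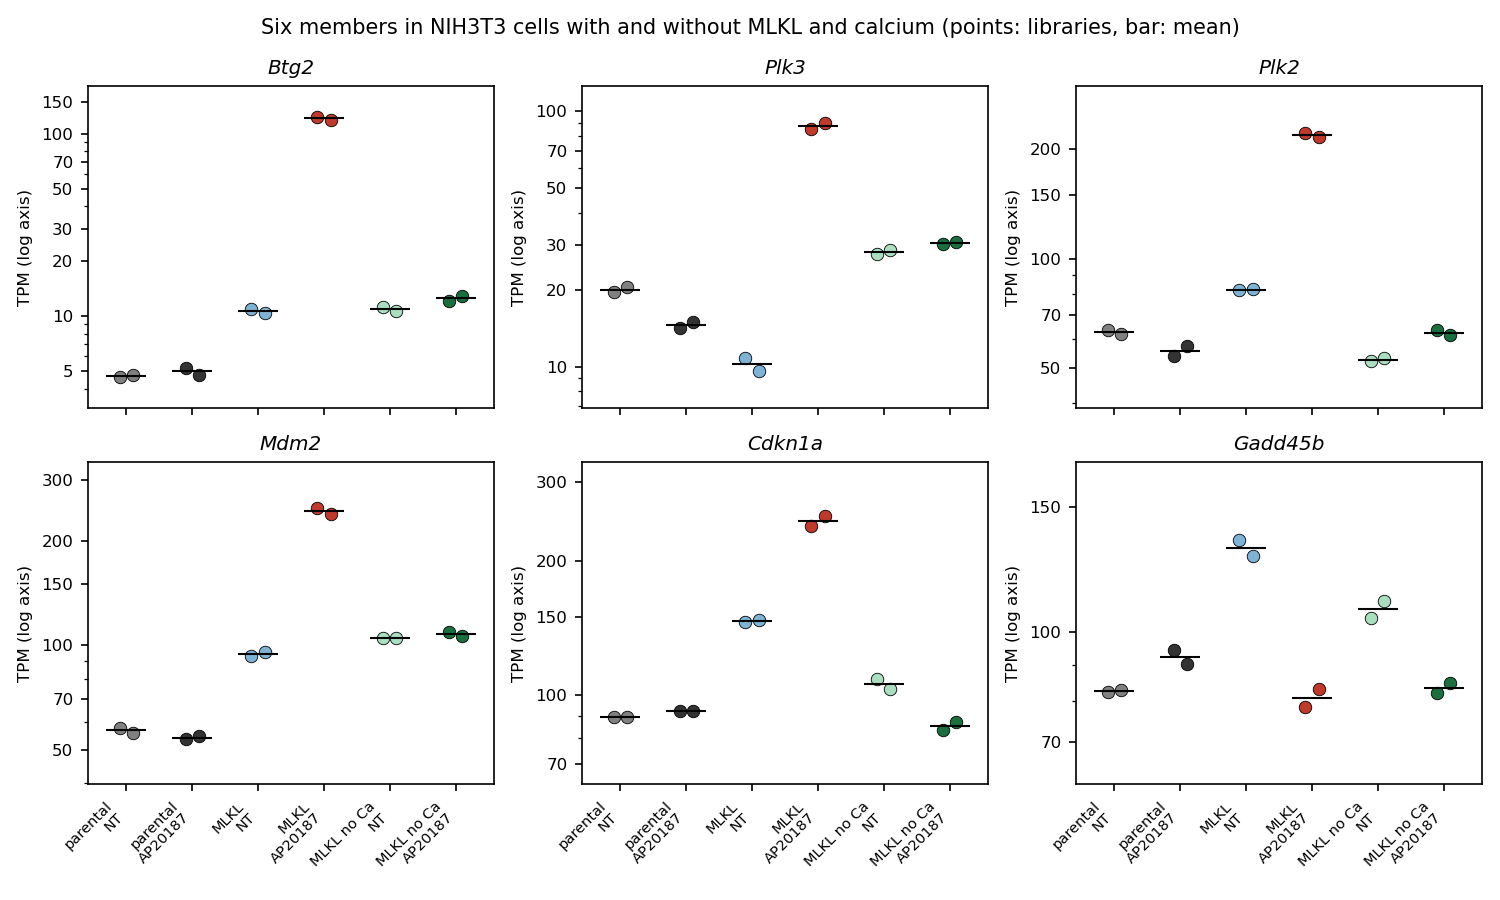
TPM on a log axis of 6 members in the libraries of 6 NIH3T3 groups (points are libraries, bars are group means, NT is untreated). Btg2, Plk3, Plk2, Mdm2 and Cdkn1a are highest in MLKL cells given AP20187 in complete medium, and Gadd45b is highest in MLKL cells left untreated.

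In the siRNA experiment Btg2 and Plk3 rose with either siRNA, while Mdm2, Gadd45a and Gadd45g responded less or in the other direction with siPKC. With siCTR, 6 members passed higher and 3 lower after AP20187, against 13.7% and 51.8% of 11410 genes. With siPKC, 5 passed higher and 3 lower, against 10.5% and 37.5% of 11308 genes, from 1 treated library. Leaving out the untreated siCTR replicate 2, which stands apart in ribosomal RNA, gave 6 members higher and 3 lower again. Btg2 went from 10.7 and 11.5 to 63.6 and 62.5 TPM with siCTR (2.40, SE 0.07) and from 17.2 and 19.4 to 87.7 TPM with siPKC (2.20, SE 0.09). Plk3 went from 21.4 and 23.2 to 159 and 162 TPM with siCTR (2.79) and from 24.5 and 25.3 to 152 TPM with siPKC (2.56). The responses of Btg2 and Plk3 differed by -0.20 (95% interval -0.43 to 0.03) and -0.23 (-0.42 to -0.05, adjusted p = 0.105), siPKC minus siCTR. With median centring Plk3 passed in this difference (-0.30, adjusted p = 0.040), as did Cdkn1a (-0.24, adjusted p = 0.024) and Plk2 (-0.16, adjusted p = 0.035).

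In this difference of responses 6 of 10 members passed, 2 higher and 4 lower, against 8.29% of 11689 genes, and with median centring 2 higher and 7 lower. It rests on 1 treated siPKC library, which is assumed to vary like the other groups. Mdm2 went from 151 and 148 to 476 and 473 TPM with siCTR but from 103 and 105 to 237 TPM with siPKC, a difference of -0.48 (SE 0.06, adjusted p = 1.3e-05). Gadd45a went from 21.0 and 18.7 to 38.3 and 38.7 TPM with siCTR and from 17.5 and 18.2 to 20.6 TPM with siPKC (-0.73, SE 0.10). Gadd45g held 36.0 and 36.5 TPM untreated and 42.1 and 41.9 TPM treated with siCTR, and fell from 64.2 and 61.4 to 37.8 TPM with siPKC (-0.92, SE 0.19, adjusted p = 0.0054). The differences of Ccng1 (0.40), Trp53inp1 (0.42) and Gadd45b (-0.28) also passed. The Gadd45b call was lost without siCTR untreated replicate 2 (adjusted p = 0.10), siCTR treated replicate 2 (adjusted p = 0.14) or siPKC untreated replicate 2 (adjusted p = 0.090). That of Trp53inp1 was lost without siCTR treated replicate 2 (adjusted p = 0.065) or siPKC untreated replicate 1 (adjusted p = 0.078). A fit on these groups alone kept 2 of the 6, Mdm2 and Gadd45g, and called 5 genes higher and 49 lower in all. Untreated, 8 of 10 members differed between siPKC and siCTR, against 45.6% of 11533 genes, with Gadd45g (0.78) and Btg2 (0.67) higher and Mdm2 (-0.52) lower. Of these, Cdkn1a lost its call without replicate 1 of either group (adjusted p = 0.075 and 0.072), and Plk3 without siCTR replicate 1 (0.27) or siPKC replicate 1 (0.054) or 2 (0.15).

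Btg2, Mdm2, Plk3, Cdkn1a, Plk2 and Gadd45a rose with AP20187 both in p65ko cells and in their noko controls, and Gadd45b fell in both. In noko cells 6 passed higher and 3 lower, against 10.6% and 55.5% of 11682 genes, and in p65ko cells 6 higher and 2 lower, against 8.99% and 50.4% of 11987 genes. Btg2 went from 10.8 and 11.5 to 83.0 and 84.1 TPM in noko cells (2.80) and from 10.2 and 12.7 to 81.1 and 79.1 TPM in p65ko cells (2.71). Mdm2 went from 160 and 162 to 493 and 495 TPM in noko cells (1.61) and from 242 and 246 to 795 and 807 TPM in p65ko cells (1.71). Treated and untreated libraries did not overlap for either gene in either line. The difference of responses, p65ko minus noko, was -0.09 for Btg2 (95% interval -0.30 to 0.12), 0.10 for Mdm2 (-0.01 to 0.20) and 0.19 for Plk3 (0.03 to 0.36, adjusted p = 0.23).

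Of the 10 members 4 passed in that difference, against 4.10% of 12212 genes. Gadd45a went from 23.6 and 22.4 to 46.7 and 44.4 TPM in noko cells and from 45.2 and 48.0 to 62.3 and 64.5 TPM in p65ko cells, a difference of -0.52 (SE 0.09, adjusted p = 0.0020). Trp53inp1 fell from 11.1 and 11.8 to 8.16 and 8.02 TPM in noko cells and held 22.9 and 24.9 TPM untreated and 23.6 and 24.8 TPM treated in p65ko cells (0.47, SE 0.09). Its own changes depend on the scaling: the fall in noko cells (-0.45) was lost with quantile normalization (-0.13, adjusted p = 0.092), and the value in p65ko cells (0.02) passed higher with quantile normalization (0.21, adjusted p = 0.0095) and with median centring (0.21, adjusted p = 0.0090). The differences of Cdkn1a (-0.24, adjusted p = 0.030) and Plk2 (-0.18, adjusted p = 0.016) were both lost without any 1 of 6 of the 8 libraries, leaving 2 members. These were both untreated noko libraries, treated noko replicate 1, untreated p65ko replicate 1 and both treated p65ko libraries. Without treated noko replicate 2 the count was 3, and without untreated p65ko replicate 2 it was 4. Untreated, 8 of 10 members differed between p65ko and noko cells, against 47.0% of 12000 genes, with Gadd45g (1.06), Trp53inp1 (1.00), Gadd45a (0.99), Mdm2 (0.60), Ccng1 (0.56) and Gadd45b (0.52) higher in p65ko cells.

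NIH3T3 GSDMD cells given 4OHT for 2.5 h had the largest rises of Plk3, Gadd45a, Gadd45g, Plk2, Mdm2 and Cdkn1a among the NIH3T3 pairs. No parental NIH3T3 cells were given 4OHT, so the pore protein cannot be told apart from 4OHT itself in this line. Here 7 members passed higher and 3 lower, against 20.0% and 58.6% of 11632 genes, with a members' median of 2.31 beside -0.29 for all genes. Cdkn1a went from 95.6 and 102 to 417 and 449 TPM (2.12, SE 0.04). Mdm2 went from 65.2 and 63.6 to 328 and 320 TPM (2.31, SE 0.04). Btg2 went from 4.16 and 4.22 to 52.9 and 51.8 TPM (3.36, SE 0.07). All of these groups were far apart relative to their spread. Plk2 went from 124 and 122 to 617 and 612 TPM (2.31, SE 0.03), and Plk3 from 26.4 and 24.5 to 417 and 456 TPM (4.05, SE 0.06, adjusted p = 3.2e-23). Gadd45a rose from 27.8 and 25.0 to 225 and 223 TPM (3.04, SE 0.07), and Gadd45g from 19.0 and 22.9 to 136 and 145 TPM (2.69, SE 0.12). Gadd45b held 67.2 and 66.1 TPM untreated and 60.42 and 59.95 TPM treated.

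Gadd45b passed lower in this pair (-0.14, adjusted p = 0.014) but turned to 0.13 (adjusted p = 0.027) when libraries were centred on their medians, so its direction here depends on the scaling. Its call was also lost without untreated replicate 1 (adjusted p = 0.067) or treated replicate 2 (adjusted p = 0.055). Trp53inp1 likewise went from -0.26 (adjusted p = 0.0014) to 0.01 with median centring. Ccng1 fell from 127 and 119 to 91.7 and 90.8 TPM (-0.43, SE 0.04). Set against the MLKL pair, whose agent and time differ, the GSDMD response was larger by 2.51 for Gadd45a, 2.25 for Gadd45g, 1.38 for Cdkn1a, 1.07 for Plk3, 0.95 for Mdm2 and 0.90 for Plk2. Btg2 differed by -0.03 (95% interval -0.24 to 0.18), a value that became 0.26 (adjusted p = 0.031) with median centring. In that difference 9 of 10 members passed, against 64.6% of 12054 genes.

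Digitonin in NIH3T3 cells raised all 10 members, where 39.3% of 11330 genes passed higher and 34.2% lower. Cdkn1a went from 138 and 143 to 516 and 494 TPM (1.84), Mdm2 from 90.3 and 100 to 398 and 418 TPM (2.09) and Btg2 from 6.74 and 6.58 to 62.8 and 64.6 TPM (3.08). Plk2 went from 123 and 125 to 340 and 351 TPM (1.47), and Plk3 from 31.1 and 29.2 to 181 and 182 TPM (2.55). Gadd45a went from 21.7 and 21.4 to 89.8 and 86.6 TPM (1.98), and Gadd45g from 42.9 and 32.4 to 60.5 and 54.4 TPM (0.61). In all of these 7 genes the treated libraries lay above the untreated ones. Ccng1 rose here, from 159 and 166 to 226 and 244 TPM (0.53, SE 0.04), as did Trp53inp1, from 4.66 and 5.35 to 9.78 and 10.4 TPM (0.89, SE 0.07). Gadd45b held 84.5 and 79.9 TPM untreated and 98.5 and 87.4 TPM treated (0.17, adjusted p = 0.0044), a call lost without untreated replicate 2 (adjusted p = 0.062) or treated replicate 1 (adjusted p = 0.16), and with median centring (0.03, adjusted p = 0.59).

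LLC cells showed smaller changes with MLKL. No parental LLC cells were given AP20187, so MLKL cannot be told apart from AP20187 itself in this line. There 5 members passed higher and 2 lower, against 5.48% and 2.08% of 11166 genes. Plk3 went from 20.9 and 21.0 to 37.6 and 34.9 TPM (0.76, SE 0.05, adjusted p = 1.4e-06), Mdm2 from 56.9 and 57.1 to 70.2 and 72.5 TPM (0.32) and Cdkn1a from 155 and 152 to 188 and 183 TPM (0.27). These 3 passed whichever library was left out. Btg2, from 1.91 and 2.10 to 2.90 and 2.78 TPM (0.36, adjusted p = 0.049), and Trp53inp1 (-0.36, adjusted p = 0.024) lost their calls whichever of the 4 libraries was left out (adjusted p from 0.125 to 0.261 and from 0.065 to 0.157). Plk2 (0.26) and Gadd45g (-0.60) lost their calls without untreated replicate 1 (adjusted p = 0.094 and 0.0555) or treated replicate 2 (0.094 and 0.073), and Gadd45g also without untreated replicate 2 (0.055). The member count was 3 without untreated replicate 1 or treated replicate 2, 4 without untreated replicate 2 and 5 without treated replicate 1. Both treated libraries carry the same replicate number in their titles. The label of the one numbered here as replicate 1 also writes the construct code differently from the other LLC MLKL libraries. 4OHT on parental LLC cells moved none of the 10 past the threshold, where 0.819% of 11110 genes passed higher and 0.0450% lower, and 3 had an unadjusted p under 0.05 with limma: Plk3 (0.12), Plk2 (-0.12) and Trp53inp1 (0.19).

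GSDMD in LLC cells raised Gadd45a and Plk3 most. In that pair 7 members passed higher and 1 lower, against 27.9% and 54.0% of 10976 genes, with a members' median of 0.56 beside -0.25 for all genes. Gadd45a went from 6.07 and 5.72 to 109 and 112 TPM (4.02, SE 0.13, adjusted p = 7.5e-11), and Plk3 from 11.6 and 11.3 to 137 and 136 TPM (3.46, SE 0.05). Mdm2 went from 69.1 and 71.1 to 240 and 235 TPM (1.75, SE 0.04), and Cdkn1a from 209 and 203 to 568 and 562 TPM (1.45, SE 0.03). These groups lay far apart. Btg2 and Plk2, which rose strongly in NIH3T3 cells, moved little: Btg2 from 2.24 and 1.74 to 3.16 and 2.96 TPM (0.44, SE 0.10), and Plk2 held 18.0 and 17.5 TPM untreated and 16.6 and 16.4 TPM treated (-0.09, 95% interval -0.20 to 0.02). Ccng1 fell from 238 and 221 to 109 and 105 TPM (-1.09, SE 0.05, adjusted p = 5.7e-10). Trp53inp1 passed higher (0.29), a call lost without untreated replicate 2 (0.19, adjusted p = 0.095) or treated replicate 1 (0.25, adjusted p = 0.054). Against the parental response to 4OHT, 7 of 10 members differed, against 71.8% of 11506 genes, a share close to that of all genes. Against the LLC MLKL response, 8 of 10 differed, against 69.8% of 11460 genes, with Gadd45a at 4.40 and Plk3 at 2.70.

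In the libraries labelled LLC digitonin and noDig, 9 members passed higher and none lower, against 20.3% and 32.2% of 11112 genes. Plk3 went from 16.9 and 17.8 to 81.9 and 84.1 TPM (2.19), Gadd45a from 12.5 and 10.9 to 55.7 and 51.3 TPM (2.10) and Cdkn1a from 107 and 112 to 370 and 366 TPM (1.74). Gadd45b, which neither pore moved past the threshold in this line, went from 4.90 and 4.50 to 16.6 and 15.8 TPM (1.59, SE 0.13, adjusted p = 1.1e-06). The member that did not pass was Ccng1 (-0.08).

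Tested directly, LLC and NIH3T3 responses differed for 8 of 10 members with MLKL, against 12.9% of 12378 genes, for 9 with GSDMD, against 60.5% of 12340 genes, and for 7 with digitonin, against 55.4% of 12184 genes. The Btg2 response was smaller in LLC cells in all 3, by -3.04, -2.92 and -2.20 on the log2 scale (SE 0.10 to 0.11). So was that of Plk2, by -1.15, -2.41 and -0.83, and of Mdm2, by -1.04, -0.57 and -1.01. Plk3 differed by -2.22 with MLKL but by -0.58 with GSDMD and -0.36 with digitonin, the last lost with quantile normalization (-0.11, adjusted p = 0.255). For Gadd45a the difference was -0.91 with MLKL and 0.98 with GSDMD, and 0.12 with digitonin (95% interval -0.16 to 0.41). Gadd45b responded more in LLC cells to digitonin, by 1.42 (SE 0.12). Untreated levels also differ between the lines: Btg2 lay between 1.39 and 2.24 TPM in 8 untreated LLC libraries and between 4.16 and 19.4 TPM in 16 untreated NIH3T3 libraries in complete medium, Plk2 between 12.3 and 20.7 and between 61.7 and 293 TPM, and Gadd45b between 4.50 and 9.48 and between 66.1 and 179 TPM. None of these ranges overlap. On the log2(TPM + 1) scale the low Btg2 level of LLC cells understates its change.

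**Figure D3:**
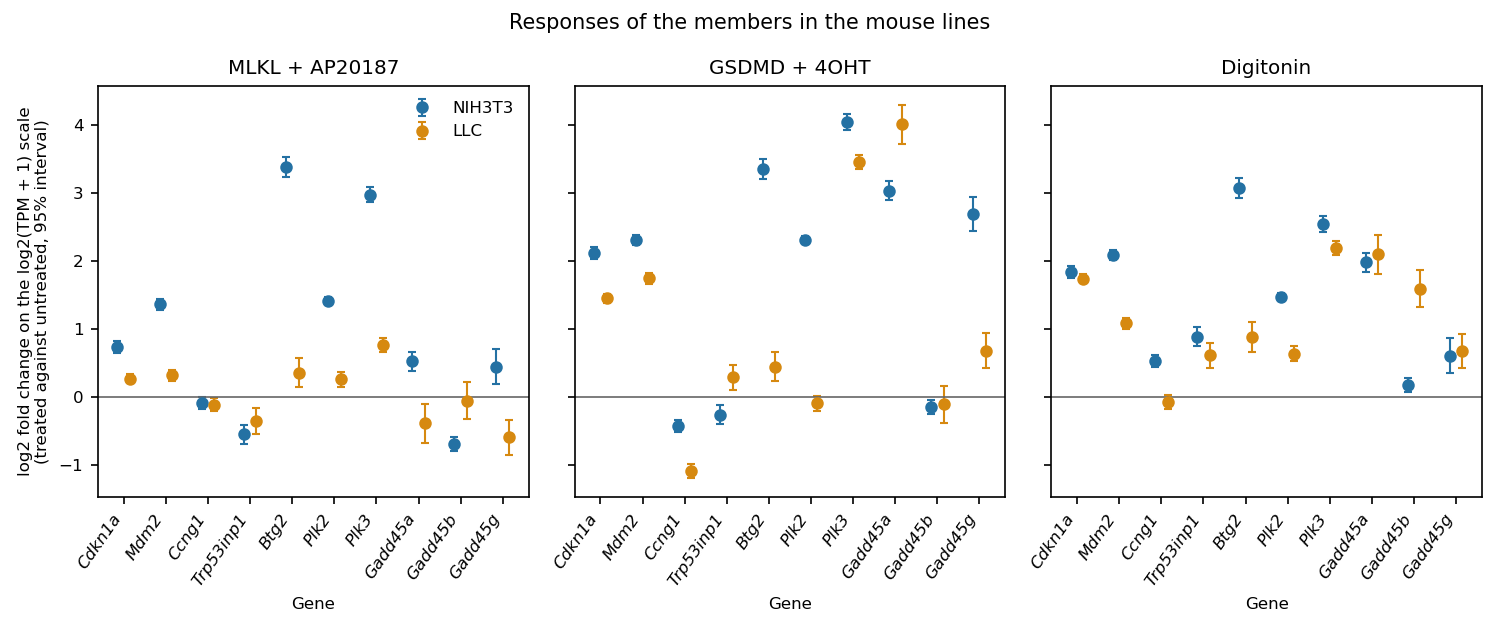
log2 fold change on the log2(TPM + 1) scale with its 95% interval for the 10 genes in NIH3T3 (blue) and LLC (orange) cells, in a panel each for MLKL with AP20187, GSDMD with 4OHT and digitonin. Btg2 and Plk2 lie lower in LLC cells in every panel, whereas Gadd45a lies higher in LLC than in NIH3T3 cells with GSDMD, at 4.02 against 3.04.

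In the human lines CDKN1A, BTG2, PLK3, GADD45A and GADD45B rose in both, and the largest change was that of CDKN1A in HT29 and of GADD45B in BxPC3 cells, GADD45G aside. In HT29 cells 5 members passed higher and none lower after digitonin, against 16.5% and 44.0% of 12193 genes. CDKN1A went from 3.64 and 3.18 to 128 and 120 TPM (4.83, SE 0.06, adjusted p = 2.0e-08). GADD45B went from 3.63 and 3.21 to 20.0 and 22.1 TPM (2.32), GADD45A from 26.8 and 24.6 to 116 and 121 TPM (2.17) and PLK3 from 11.1 and 9.35 to 30.8 and 31.9 TPM (1.53). BTG2 went from 3.23 and 2.80 to 10.9 and 10.2 TPM (1.53). In these 5 the treated libraries lay above the untreated ones. MDM2 held 17.9 and 17.8 TPM untreated and 17.3 and 16.2 TPM treated (-0.08, 95% interval -0.24 to 0.07), and PLK2 183 and 191 TPM untreated and 180 and 183 TPM treated (-0.04, 95% interval -0.13 to 0.04). PLK2 turned to 0.13 (adjusted p = 0.013) with median centring, under which 8 members passed. GADD45G held 2.10 and 1.28 TPM untreated and 2.07 and 3.29 TPM treated (0.45, adjusted p = 0.076), and passed without untreated replicate 1 (0.67, adjusted p = 0.029) or treated replicate 1 (0.69, adjusted p = 0.019).

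In BxPC3 cells 8 members passed higher and 1 lower, against 23.7% and 56.9% of 13566 genes. CDKN1A went from 59.4 and 58.7 to 984 and 925 TPM (3.99, SE 0.06), and MDM2 from 11.8 and 10.6 to 92.2 and 100 TPM (2.99, SE 0.07). BTG2 went from 11.1 and 10.5 to 262 and 251 TPM (4.45, SE 0.07, adjusted p = 2.4e-08). These 3 groups were far apart. PLK2 went from 76.8 and 75.5 to 241 and 250 TPM (1.67), and PLK3 from 24.5 and 25.5 to 89.4 and 86.4 TPM (1.77). GADD45B went from 20.5 TPM in both libraries to 519 and 545 TPM (4.63, SE 0.07), and GADD45A from 79.4 and 76.2 to 413 and 442 TPM (2.44). GADD45G is listed at 0 in both untreated libraries and at 51.0 and 51.2 TPM in the treated ones, and no fold can be given. It entered the test only through its treated libraries and so had to differ. It is 1 of the 8 members counted as higher, and 7 passed higher without either treated library. CCNG1 fell from 45.8 and 45.5 to 32.7 and 39.3 TPM (-0.34, adjusted p = 0.0053), which became 0.08 (adjusted p = 0.28) with median centring and 0.03 (adjusted p = 0.71) with quantile normalization.

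The lines differed in 8 of 9 tested members, GADD45G with its untreated BxPC3 libraries at 0 among them, against 64.1% of 14393 genes. HT29 minus BxPC3, the responses differed by -3.08 for MDM2, -2.92 for BTG2, -2.31 for GADD45B and -1.72 for PLK2, and by 0.83 for CDKN1A (SE 0.09, adjusted p = 0.00023). PLK3 differed by -0.24 (95% interval -0.50 to 0.02). The differences of GADD45A (-0.28) and CCNG1 (0.38) each lost their call without 1 of several libraries: GADD45A without treated HT29 replicate 1 (adjusted p = 0.069), untreated HT29 replicate 1 (0.052), treated BxPC3 replicate 2 (0.060) or untreated BxPC3 replicate 2 (0.069), and CCNG1 without treated HT29 replicate 1 (0.066), either untreated HT29 library (0.0516 and 0.0615) or either untreated BxPC3 library (0.063 and 0.058). TP53INP1 was under 1 TPM in all 8 human libraries, at most 0.68 TPM, and was not tested.

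**Figure D4:**
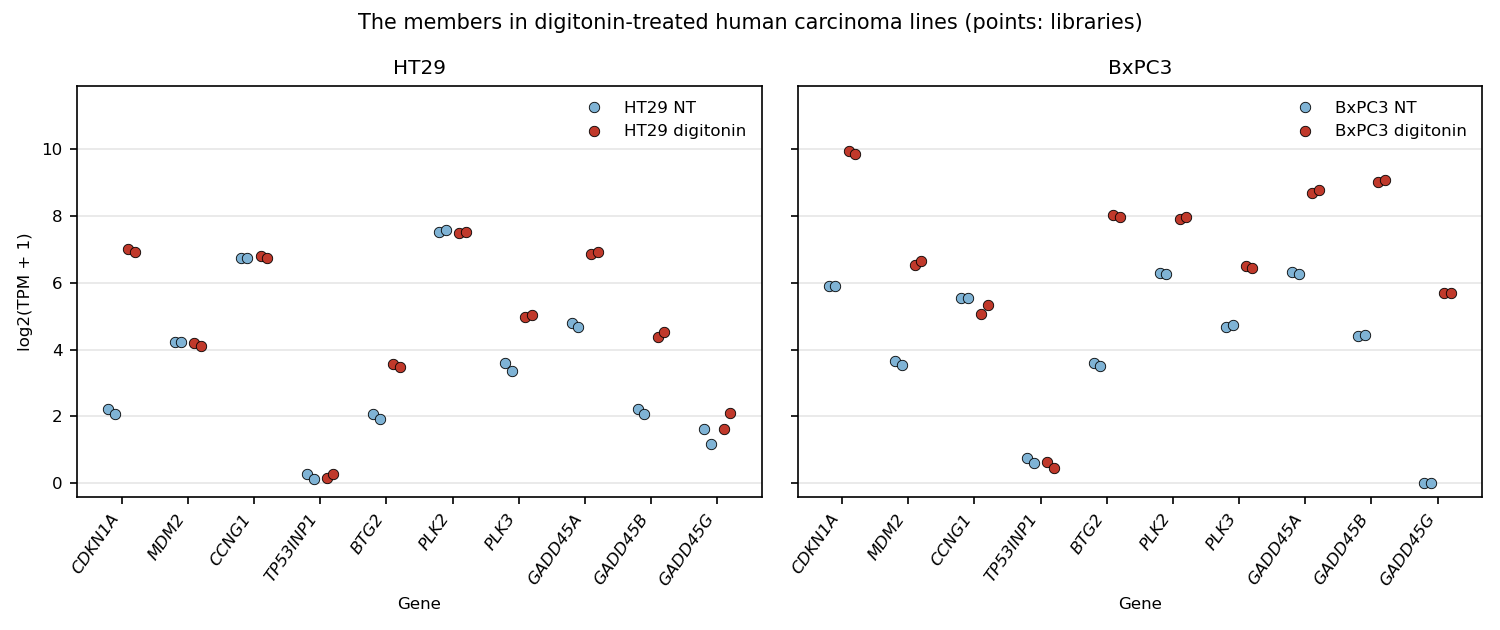
log2(TPM + 1) of the 10 genes in each untreated (blue) and digitonin-treated (red) library of HT29 and BxPC3 cells. MDM2 and PLK2 lie close together in treated and untreated HT29 libraries and are apart in BxPC3 cells, and GADD45G sits at 0 in untreated BxPC3 libraries.

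Across the 12 permeabilization pairs the Gadd45 genes went separate ways. Gadd45b passed higher in all 4 digitonin pairs (0.17 to 4.63) and in none of the 8 pore protein pairs, 6 of which, all in NIH3T3 cells, passed lower (to -1.10 with siPKC), the GSDMD pair turning sign and the NIH3T3 digitonin call being lost with median centring, as given above. Doses, times and lines differ between these pairs, and the digitonin and pore responses were not tested against each other. The human lines had digitonin only, and the Gsdmd level of the LLC digitonin pair goes against its label. Gadd45a passed higher in 10 of the 12, with no lower call, and Gadd45g higher in 6, in BxPC3 cells from a listed 0, and lower in 2.

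**Figure D5:**
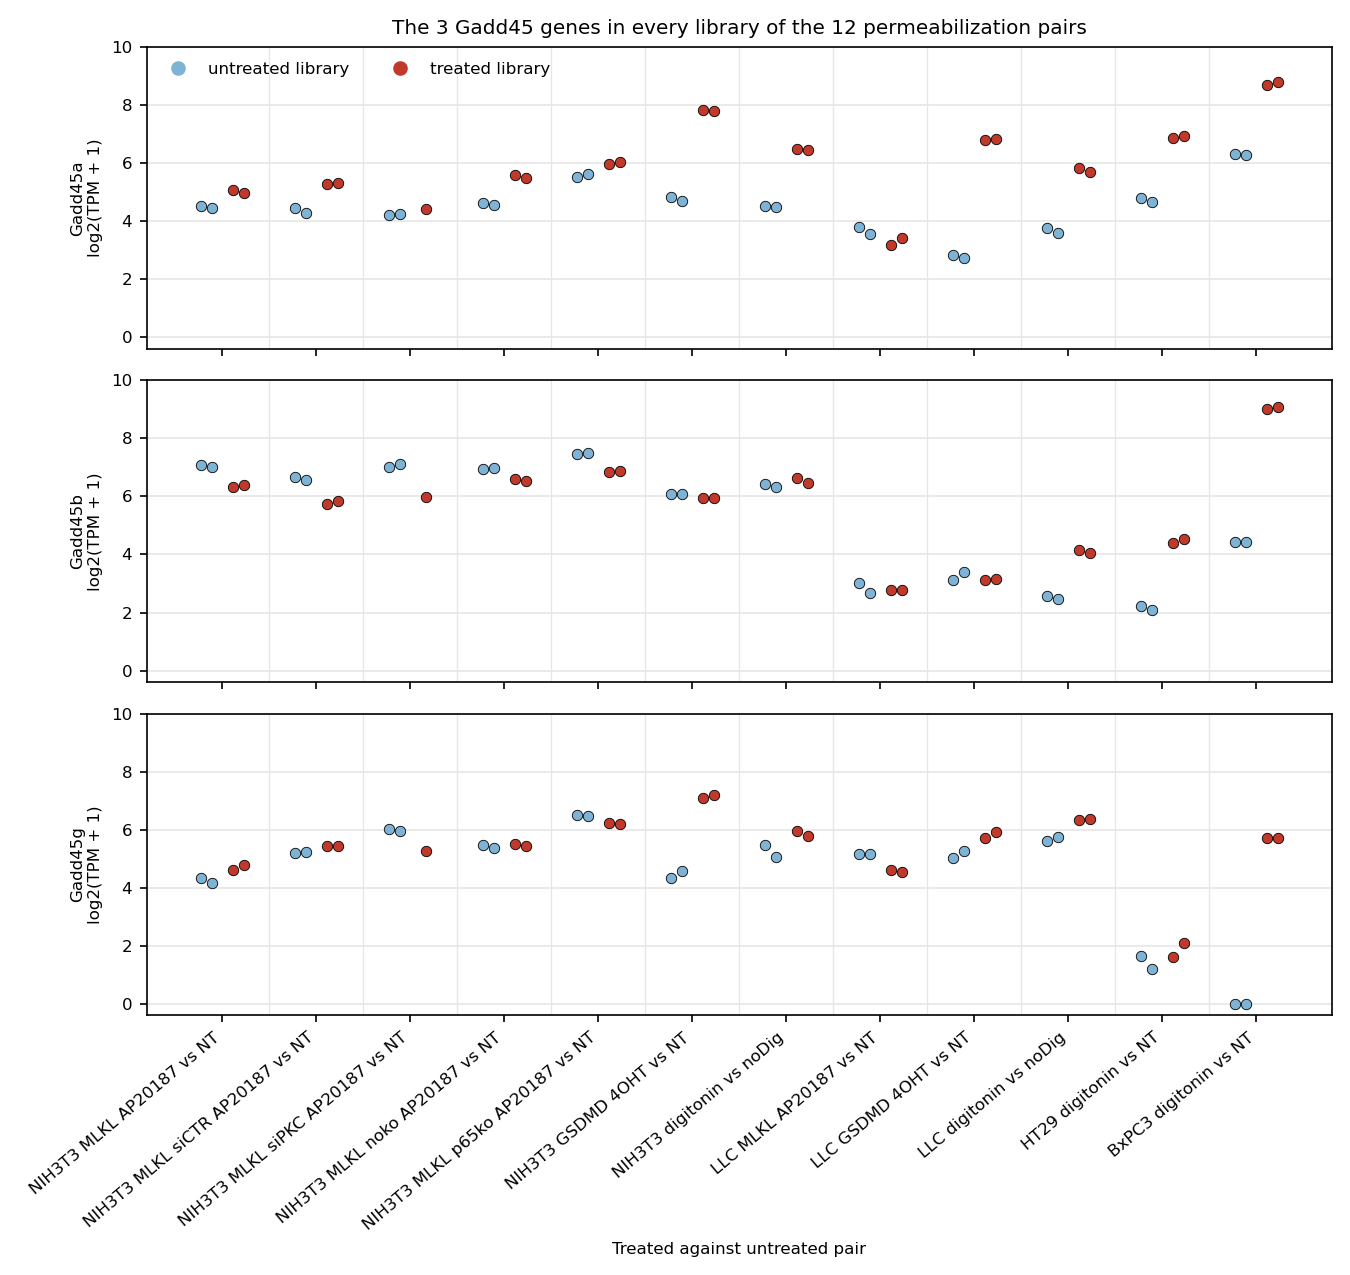
log2(TPM + 1) of Gadd45a, Gadd45b and Gadd45g (human genes under the mouse symbols) in each untreated (blue) and treated (red) library of the 12 permeabilization pairs. Gadd45b lies lower in treated NIH3T3 cells with either pore and higher with digitonin, most of all in BxPC3 cells, while Gadd45a is higher in treated libraries everywhere but in LLC MLKL cells.

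The other known p53 targets passed both higher and lower, as did genes at large. The list was chosen with results of these data known and is described by its counts. Of 24 listed genes, 21 were tested in NIH3T3 MLKL cells, where 5 passed higher and 4 lower, against 15.8% and 16.5% of all genes, with a median change of -0.02. In NIH3T3 GSDMD cells 7 of 21 passed higher and 12 lower, against 20.0% and 58.6% (median -0.28, all genes -0.29). In NIH3T3 digitonin 10 of 21 passed higher and 6 lower, against 39.3% and 34.2% (median 0.15, all genes 0.02). In LLC cells, of 21 tested, 10 and 9 passed with GSDMD, against 27.9% and 54.0%, 8 and 2 with digitonin, against 20.3% and 32.2%, and 3 and 1 with MLKL, against 5.48% and 2.08%. The higher count with GSDMD includes Gdf15, which entered the test only through its treated libraries and so had to differ. With siCTR, siPKC, noko and p65ko, 2 or 3 of 21 or 22 passed higher, against 8.99% to 13.7%, and 10 to 12 lower, against 37.5% to 55.5%. Parental pairs had none in either direction, and the calcium-free pair 1 and 1 of 21, against 2.27% and 3.42%. In HT29 cells 9 of 23 passed higher and 11 lower, against 16.5% and 44.0%, and in BxPC3 cells 8 and 9 of 23, against 23.7% and 56.9%. The higher counts of both human lines include BBC3, which entered through its treated libraries, as given below. Several of these counts, such as the lower ones in NIH3T3 MLKL, NIH3T3 GSDMD and noko cells, lie near the share of all genes. Others lie further from it, such as the higher ones in HT29 and LLC GSDMD cells and both counts in LLC digitonin.

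Among the targets with the largest changes were Bbc3, which encodes the BH3-only protein PUMA, Eda2r, a TNF receptor family member, and Sesn2, a stress-induced inhibitor of mTORC1. Bbc3 rose from 2.78 to 14.4 TPM in mean in NIH3T3 GSDMD cells (2.03, SE 0.11). BBC3 had a mean of 0.881 TPM untreated and 16.6 TPM treated in HT29 cells and of 0.651 and 75.5 TPM in BxPC3 cells, untreated means under the 1 TPM that the test asks for, so that it entered through its treated libraries and its calls there are no support. Eda2r rose from 15.2 to 85.6 TPM in NIH3T3 digitonin (2.42) and from 18.8 to 88.6 TPM in LLC GSDMD cells (2.18). Sesn2 rose in LLC digitonin (1.65) and in NIH3T3 GSDMD cells (1.63). In BxPC3 cells GDF15, a stress-induced cytokine, rose by 4.41 and PMAIP1, which encodes NOXA, by 3.87. Phlda3, an inhibitor of AKT, fell by 0.92 in NIH3T3 digitonin, and Xpc, a nucleotide excision repair gene, fell by 0.97 in noko cells. The list reached lower values in other pairs, where strong rises are named above. Its lowest value was -1.37 in NIH3T3 GSDMD, -1.36 in LLC GSDMD and -1.39 in BxPC3 cells. In NIH3T3 MLKL cells the largest were Polk (0.80), Sesn2 (0.68) and Eda2r (0.57).

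Among relatives of the members, Btg1 rose in all 12 permeabilization pairs, and how many genes at large did so was not counted. The values named here were chosen after they were seen. Of 12 listed relatives and partners, 11 were tested in NIH3T3 MLKL cells, where 4 passed higher and 4 lower, against 15.8% and 16.5% of all genes, with Btg1, a BTG/TOB family gene like Btg2, at 0.96 (SE 0.04), from 104 to 203 TPM in mean. Btg1 rose by 2.42 in LLC GSDMD cells, from 38.9 to 212 TPM, where Btg2 rose by 0.44. BTG1 rose by 2.92 in HT29 cells and 3.15 in BxPC3 cells. Ccng2, a relative of Ccng1, fell by 0.56 in the NIH3T3 MLKL pair but rose by 1.56 with siCTR and 1.87 in noko cells, while Ccng1 fell in both of the latter, in noko cells only without median centring (-0.29, and -0.05 with it). Plk1, the mitotic Polo-like kinase, fell by 2.33 in NIH3T3 GSDMD cells, from 82.3 to 15.6 TPM, where Plk2 and Plk3 rose.

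Genes most like a member were found by Pearson's r of log2 fold change over the 13 mouse pairs, among 3073 other genes (3074 for Trp53inp1) with a log2 fold change of at least 1 in either direction in 1 pair or more. These r are descriptions, without a test, over pairs that share lines and treatments. Mdm2 was most like Ier5 (r = 0.979), Gadd45a like Herpud1 (0.979), Ccng1 like Stxbp4 (0.977), Plk3 like Phlda1 (0.972), Cdkn1a like Csrnp1 (0.966) and Btg2 like Trib1 (0.954). Gadd45g was most like Spsb1 (0.939), Gadd45b like Ralgds (0.905) and Trp53inp1 like Klhl11 (0.855). Among the members themselves Mdm2 was most like Plk3 (0.925) and Cdkn1a (0.903), and Gadd45b like Trp53inp1 (0.730), whereas Btg2 and Gadd45b had r = -0.39.

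Starting levels of the members differed between construct lines and parental cells. Between untreated NIH3T3 MLKL and parental cells all 10 differed, against 51.7% of 11655 genes. Trp53inp1 was 17.9 and 18.9 against 3.87 and 3.53 TPM (2.04, SE 0.07), Ccng1 306 and 311 against 115 and 107 TPM (1.47), and Btg2 10.9 and 10.4 against 4.61 and 4.75 TPM (1.04). The Gadd45g call was lost without parental replicate 1 (0.31, adjusted p = 0.068). Plk3 was lower, at 10.8 and 9.63 against 19.5 and 20.5 TPM (-0.91, SE 0.06), as was Gadd45a (-0.47). Between untreated LLC GSDMD and parental cells 9 of 10 differed, against 61.7% of 11178 genes, with Gadd45g (0.77), Cdkn1a (0.68) and Gadd45b (0.60) higher and Plk3 (-0.40) lower. Here Mdm2 (0.12), Ccng1 (0.15) and Gadd45a (-0.38) each lost the call without parental replicate 1 (adjusted p = 0.12, 0.105 and 0.126), Ccng1 and Gadd45a without GSDMD replicate 1 (0.12 and 0.056), and Mdm2 and Gadd45a without GSDMD replicate 2 (0.0785 and 0.107). The construct cannot be told apart from the history of each line.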

How the data were processed

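Polyadenylated RNA of 59 libraries was measured, and the authors deposited 1 table for the mouse lines and 1 for the human lines, with 1 value per gene and library. The deposited values were read as TPM, since column totals lay between 999910 and 999989 in the mouse table and at 999999 to 1e+06 in the human one. Salmon and the builds mm10 and hg19 are named in the submitters' processing notes, whereas for the version, the index and the summing to genes nothing was given in the sources used here. Read depth per library is unknown, so no counting intervals are given.

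Levels were tested on log2(TPM + 1), a pseudocount of 1 TPM, with limma 3.58.1 (lmFit and eBayes with trend) in R 4.3.3. One model per mouse line held all its groups, 1 model held both human lines, and a joint mouse model gave LLC minus NIH3T3. Testing was limited to genes at 1 TPM or more in 2 or more of the libraries compared, and p was adjusted by Benjamini-Hochberg over all of them, with a threshold of 0.05. The siPKC group given AP20187 has 1 library, whose spread was taken from the other groups. Both LLC MLKL libraries given AP20187 carry the same number in their titles and were numbered in accession order. The 10 genes and the lists of other genes were chosen with earlier results of these data known. From the other lists, examples are up to 3 genes with the largest changes that passed in a pair. Some results that these rules give are not reported here. Alternatives were a pseudocount of 0.1 TPM, no filter, quantile normalization, median centring, only the libraries compared, leaving each library out in turn, and a replicate block. The LLC digitonin pair and the siCTR pair were also left out of the counts over pairs, an alternative chosen after seeing the data. Same-numbered libraries of a pair were not linked by a shared culture in the labels. The fitting code was tested on simulated data, and figures were drawn with matplotlib 3.10.9.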

Additional observations from a re-analysis of the deposited data

Results flagged for a closer look

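The responses of some members differed between groups under the same treatment by at least 1 on the log2(TPM + 1) scale. Only differences of this size that also passed with limma are listed, with 2 libraries per group, so their passing is no added support. The share of all genes that passed in each difference is given in the results. NIH3T3 MLKL minus parental cells, the response to AP20187 differed by 1.43 for Mdm2, 3.32 for Btg2, 1.58 for Plk2 and 3.41 for Plk3. Without calcium minus in complete medium, it differed by -1.05 for Cdkn1a, -1.33 for Mdm2, -3.22 for Btg2, -1.16 for Plk2 and -2.86 for Plk3. LLC GSDMD minus parental cells, the response to 4OHT differed by 1.46 for Cdkn1a, 1.82 for Mdm2, -1.16 for Ccng1, 3.34 for Plk3 and 3.95 for Gadd45a. HT29 minus BxPC3, the response to digitonin differed by -3.08 for MDM2, -2.92 for BTG2, -1.72 for PLK2 and -2.31 for GADD45B.

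LLC minus NIH3T3, the MLKL response differed by -1.04 for Mdm2, -3.04 for Btg2, -1.15 for Plk2, -2.22 for Plk3 and -1.04 for Gadd45g. The GSDMD response differed by -2.92 for Btg2, -2.41 for Plk2 and -2.01 for Gadd45g. The digitonin response differed by -1.01 for Mdm2, -2.20 for Btg2 and 1.42 for Gadd45b, and rests in LLC cells on libraries whose Gsdmd level goes against their label.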

How the results depend on the processing

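Of 148 tested member values in the treated pairs, 147 kept their direction and side of the threshold with a pseudocount of 0.1 TPM, 146 with no filter, 136 with quantile normalization, 135 with median centring, 136 with only the libraries compared and 142 with the replicate block. With median centring the members called in HT29 cells were 8 in place of 5. With only the libraries of the comparison they were 0 in place of 2 in parental NIH3T3 cells given AP20187, 1 in place of 4 in the calcium-free pair, and 2 in place of 6 in the siPKC minus siCTR difference. The replicate block gave 1 in place of 2 in the parental pair, with Plk2 lost (adjusted p = 0.107), and left every other count of members called within 1.5 times. The replicate numbers were not shown to pair libraries, since the correlation of same-numbered deviations lay between -0.0337 and 0.118 over 13 pairs. Leaving out 1 library gave 1 to 2 members called in the parental NIH3T3 pair (2 with all), 3 to 5 in LLC MLKL cells (7 with all) and 2 to 4 in the p65ko minus noko difference (4 with all). Signs turned in these cases: Trp53inp1 in NIH3T3 GSDMD cells (-0.26, but 0.050 with quantile normalization and 0.0131 with median centring), CCNG1 in BxPC3 cells (-0.34, but 0.0276 and 0.0800), and, with median centring, Gadd45b in NIH3T3 GSDMD cells (0.13), PLK2 in HT29 cells (0.13), Btg2 in NIH3T3 GSDMD minus MLKL (0.26) and Ccng1 in untreated calcium-free against complete medium (0.10). The cause was not tested. Depth is unknown, so the limit it sets on low members such as TP53INP1 cannot be given.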

Other observations

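Btg3, a relative of Btg2, stood at a mean of 0.0365 TPM in untreated p65ko cells and 18.0 TPM in untreated noko cells, a gene singled out after its values were seen. Gdf15, a p53 target, is listed at 0 in both untreated LLC GSDMD libraries and at a mean of 7.65 TPM with 4OHT. The small RNA gene Mir6236 held 50961 TPM in the untreated siCTR replicate 2, where the next highest mouse library held 18965 TPM.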
